A study of Mus musculus with 15 samples.

Results

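The genes described here code for the enzymes that take up glucose, break it down to pyruvate and lactate, pass pyruvate into the mitochondrion, and build and break down glycogen. They were chosen by name, 36 genes in all, and 33 of them had a probe set in a table that covers 18190 genes by name. Of the 33, 32 entered the test across 13107 genes, and Gapdh was measured by 3 control probe sets outside that test. Gpi1, Eno1 and Pfkfb1 had no probe set listed under 1 gene symbol in the annotation used, so they are named only.

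Heart apex RNA was hybridised to Affymetrix mouse arrays, 5 from each of 3 groups of male mice. The groups were the inbred strains C3H (C3H/HeJ) and C57Bl/6 (C57BL/6J), and B6C3F1 (B6C3F1/J), their first-generation hybrid. Mice of every group were 9 to 10 weeks old, ate the same diet and had been implanted with a radiotelemetry transmitter under tribromoethanol at 7 weeks. No agent was given besides, and the mice were killed with CO2. Each array is labelled as a separate animal, and labelling started from 50 ng of RNA with a double round of amplification. The study set cardiac gene expression of the 3 kinds of mice beside their heart physiology and pathology. The 10 cardiomyocyte markers examined were all above the dim filter and their summed signal lay between 18.73 and 19.37 log2 units on every array.

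As background, glucose enters the cardiomyocyte through GLUT1 and GLUT4 and is trapped by hexokinase. Phosphofructokinase commits it to glycolysis, which ends in pyruvate. Pyruvate is then either reduced to lactate or oxidised by the pyruvate dehydrogenase complex, a gate that the pyruvate dehydrogenase kinases close by phosphorylation and a phosphatase reopens. The adult heart burns mainly fatty acids, and it keeps glycogen as a store that phosphorylase mobilises and glycogen synthase refills.

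Most of these genes were bright and differed little between the inbred strains, while the share called was near that of all genes. Pdk2, a kinase that inhibits pyruvate dehydrogenase, stood out by size. All values are log2(signal + 16), and a gene stands on its brightest probe set. The median gene of the 32 had a mean signal of 13.44, against 8.90 over all genes tested, and 20 lay above the 90th percentile of all genes, although signal also depends on the probes. The median residual SD of the 32 was 0.17 against 0.26, and 28 of them varied less between arrays than the median gene. The others were Slc2a1, Pdk3, Aldoc and Pfkfb3. Genes of matched signal were not compared, so this lower spread is not shown to be particular to the pathway. Between the inbred strains (C3H minus C57Bl/6), 4 of 32 genes were called at an adjusted p under 0.05, which is 12.5%, beside 15.7% of all genes. Of these, 1 was higher in C3H (7.26% of all genes were) and 3 were lower (8.4% of all genes were). The higher gene was Hk1 and the lower genes were Pdk2, Pdhb and Pfkp. The median difference of the 32 was -0.03, against -0.02 over all genes, and their median absolute difference was 0.14 against 0.22. These values depend on the use of the brightest probe set. Dimmer sets gave larger differences for some of these genes and smaller ones for others. For 26 of the 32, the 95% interval of the difference lay within 1.5-fold in either direction, a count not made over all genes. At an unadjusted p under 0.05 there were 7 genes (21.9%, beside 27.9% of all genes). The members' arrays did not overlap between these strains for 3 (Pdk2, Pdhb and Pfkp), beside 11.2% of all genes.

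**Figure D1:**
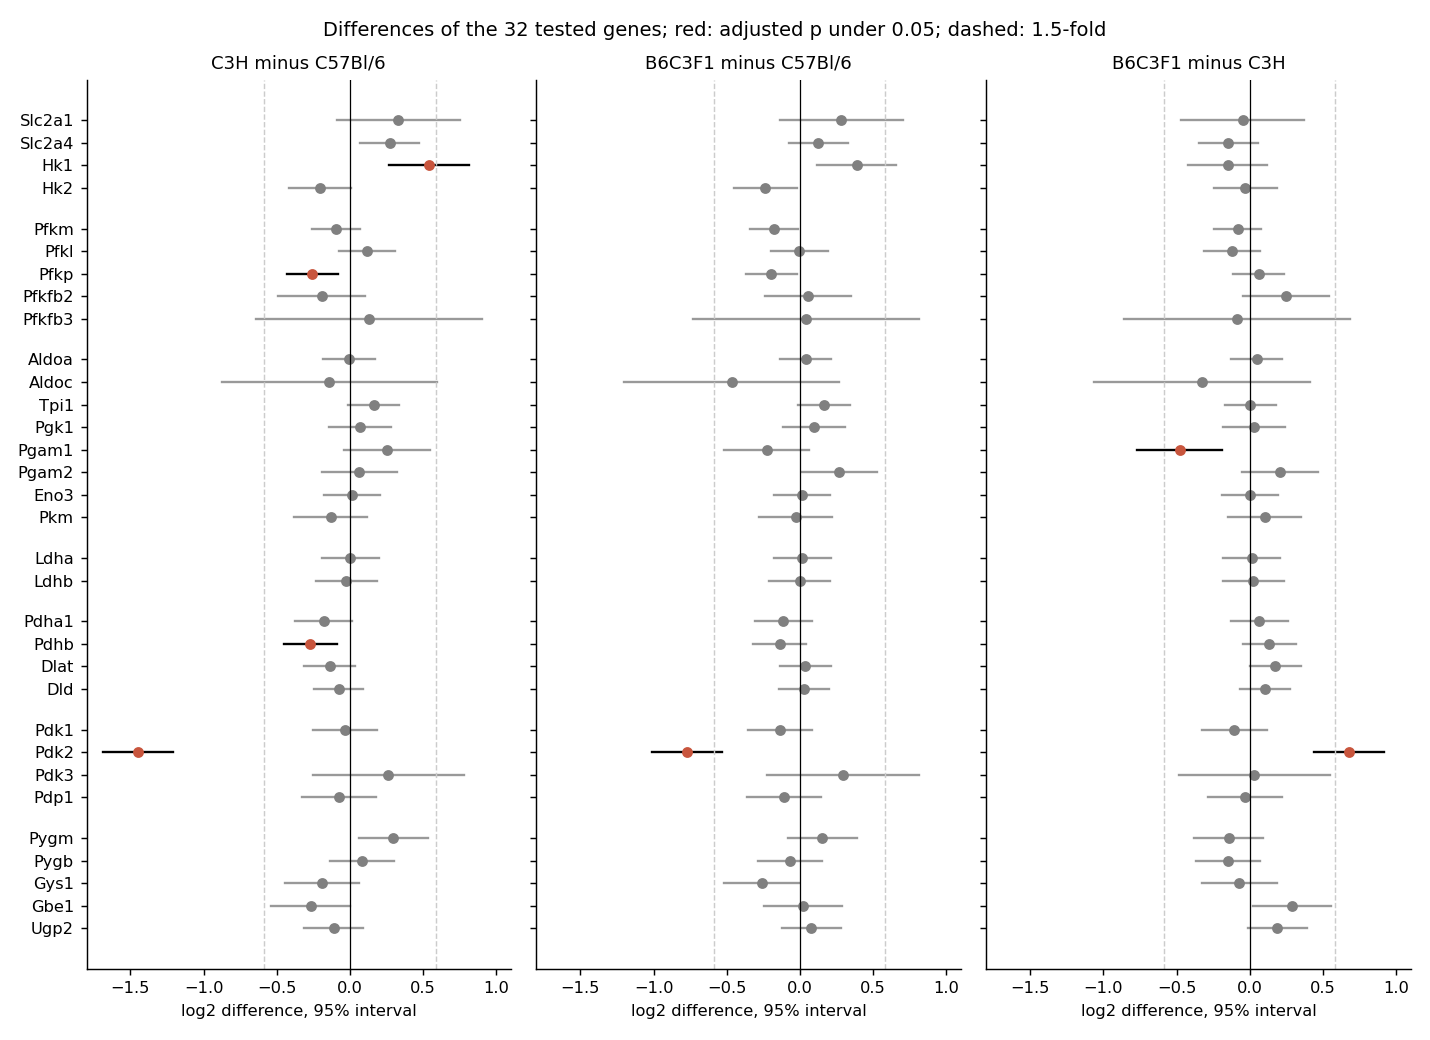
Log2 differences (x axis) of the 32 tested genes, grouped by role, for C3H minus C57Bl/6, B6C3F1 minus C57Bl/6 and B6C3F1 minus C3H. Points are limma estimates, bars are 95% intervals, red marks an adjusted p under 0.05 and the dashed lines stand at 1.5-fold. Pdk2 is red in all 3 panels, at -1.45, -0.77 and 0.68, while most intervals cross 0.

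Pdk2 codes for a pyruvate dehydrogenase kinase that most tissues express and that is abundant in heart. On the 5 C3H arrays its signal was 9.38, 9.20, 9.47, 9.23 and 9.10. On the 5 B6C3F1 arrays it was 10.03, 9.76, 9.76, 9.97 and 10.25, and on the 5 C57Bl/6 arrays 10.62, 10.89, 10.51, 10.89 and 10.71. The 3 groups were fully separate, with every hybrid array between the inbred strains. The difference between the inbred strains was -1.45 ± 0.12 (SE), a 2.73-fold lower signal in C3H (adjusted p = 1.82e-08). B6C3F1 was 1.71-fold lower than C57Bl/6 (-0.77 ± 0.12, adjusted p = 0.000439) and 1.60-fold higher than C3H (0.68 ± 0.12, adjusted p = 0.00102). The hybrid mean lay 0.53 of the way from C57Bl/6 (0) to C3H (1), and its difference from the midparent (the average of the parental means on the log2 scale) was -0.05 with a 95% interval of -0.26 to 0.16. The call held in all 27 alternative settings in each of these 3 contrasts, and the C3H minus C57Bl/6 difference lay between -1.50 and -1.34. In bulk tissue, fewer cells of a type and less RNA per cell cannot be told apart. The cardiomyocyte markers gave 0 calls of 10 in every contrast, as values beside this difference. Pdk2 rests on 1 probe set, so no other part of its transcript was measured here. Whether a strain difference under its probes affects this signal was not tested.

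Promoter sequence of Pdk2, Hk1 and Pdhb is shown because these genes differed between the strains on all of their probe sets. Each line holds the 250 bases before an annotated start, 5′ to 3′ on the gene's own strand, from RefSeq on GRCm38.p6, the reference of the C57BL/6J strain; C3H sequence was not used here. The motifs searched, on both strands, were ACGTG (core letters of the hypoxia response element), CACGTG (an E-box, which contains ACGTG on each strand), AAGGTCA (letters bound by estrogen-related receptors) and GGGCGG (a GC box). Capitals mark their matches.
Pdk2 first start, chr11:95041372-95041621, minus strand: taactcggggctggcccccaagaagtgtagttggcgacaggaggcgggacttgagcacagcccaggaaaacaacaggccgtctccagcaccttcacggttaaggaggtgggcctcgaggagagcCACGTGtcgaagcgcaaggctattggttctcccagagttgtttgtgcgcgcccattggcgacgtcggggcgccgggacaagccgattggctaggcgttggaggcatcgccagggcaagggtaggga
Hk1 upstream start, chr10:62379909-62380158, minus strand: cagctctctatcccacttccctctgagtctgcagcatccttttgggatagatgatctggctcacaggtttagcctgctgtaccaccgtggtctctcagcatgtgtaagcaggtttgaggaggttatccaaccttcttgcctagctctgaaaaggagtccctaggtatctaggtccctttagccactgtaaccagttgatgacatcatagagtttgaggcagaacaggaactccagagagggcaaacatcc
Hk1 downstream start, chr10:62340422-62340671, minus strand: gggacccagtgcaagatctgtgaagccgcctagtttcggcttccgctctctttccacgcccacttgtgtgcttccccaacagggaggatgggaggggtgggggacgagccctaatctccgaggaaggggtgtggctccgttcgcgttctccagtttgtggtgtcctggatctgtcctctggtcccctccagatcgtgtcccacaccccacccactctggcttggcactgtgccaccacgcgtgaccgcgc
Pdhb start, chr14:8172993-8173242, minus strand: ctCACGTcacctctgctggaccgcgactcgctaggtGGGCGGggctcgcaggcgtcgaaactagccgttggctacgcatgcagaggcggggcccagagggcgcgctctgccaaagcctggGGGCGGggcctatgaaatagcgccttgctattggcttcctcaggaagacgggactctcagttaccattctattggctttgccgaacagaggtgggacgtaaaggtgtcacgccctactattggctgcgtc
The Pdk2 window holds CACGTG, which 6.02% of 32851 windows of this length before annotated starts hold. A second annotated Pdk2 start, chr11:95040876-95041125 for its window, has 0 matches, as have both Hk1 windows. The Pdhb window holds ACGTG on the opposite strand (read as CACGT) and 2 matches of GGGCGG. Of the 36 genes, 34 had a window in the table, with 54 starts between them. ACGTG was present in 37.0% of these starts against 16.6% of all starts, and 16 of the 34 genes had it. CACGTG was present in 9.26% (Ldha, Pdk2, Pfkfb2, Pfkfb3 and Pfkm), GGGCGG in 44.4% against 32.7% and AAGGTCA in 3.70% against 4.08%. A match describes these letters and is no evidence of binding, and no binding was measured.

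Of the 4 genes for glucose uptake and phosphorylation, Hk1 was called. Hk1 codes for the hexokinase that is bound to mitochondria in many tissues and is the main form in the fetal heart. Its signal was 12.30, 12.32, 12.43, 12.27 and 11.83 in C3H, 12.45, 12.14, 11.98, 12.05 and 11.77 in B6C3F1, and 11.77, 11.82, 11.68, 11.84 and 11.35 in C57Bl/6. Of the C3H arrays, 4 lay above every C57Bl/6 array and the fifth overlapped them. The C3H minus C57Bl/6 difference was 0.54 ± 0.13 (SE, 95% interval 0.27 to 0.81, adjusted p = 0.00655). A second, dimmer probe set of Hk1 gave 0.95 ± 0.24 (adjusted p = 0.0085 over all probe sets). B6C3F1 stood 0.39 above C57Bl/6 (interval 0.12 to 0.66, adjusted p = 0.0988) and 0.15 below C3H (interval of the difference -0.42 to 0.12), and neither contrast was called. Poly-A control RNAs added at labelling were brighter on the C3H arrays (11.05 ± 0.80, SD, n = 5) than on the C57Bl/6 arrays (10.26 ± 0.57). In a limma fit that included their signal the Hk1 difference was 0.45, with its call lost (adjusted p = 0.0682). Every C3H array (lowest 10.63) lay above every C57Bl/6 (highest 10.55) and B6C3F1 (highest 10.54) array in this signal. It is thus confounded with strain in such fits, here and for the genes below. With it, 10.4% of all genes were called between the inbred strains, beside 15.7% without it.

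Hk2 codes for the insulin-responsive hexokinase that predominates in adult heart muscle. Its signal was 13.81, 13.63, 13.43, 13.35 and 13.12 in C3H, 13.41, 13.42, 13.52, 13.33 and 13.51 in B6C3F1, and 13.69, 13.56, 13.65, 13.75 and 13.73 in C57Bl/6. The C57Bl/6 arrays lay above every B6C3F1 array and inside the spread of C3H. Neither difference was called: -0.21 for C3H minus C57Bl/6 (interval -0.42 to 0.01, adjusted p = 0.197) and -0.24 for B6C3F1 minus C57Bl/6 (interval -0.45 to -0.02, adjusted p = 0.198). Without C3H replicate 1 the C3H minus C57Bl/6 difference of Hk2 was called (adjusted p = 0.0356). The log2 ratio of the Hk1 to the Hk2 probe set was -1.24 ± 0.20 (SD, n = 5) in C3H, -1.36 ± 0.30 in B6C3F1 and -1.98 ± 0.24 in C57Bl/6. Every C3H array lay above every C57Bl/6 array. So did every B6C3F1 array, by a narrow margin (lowest B6C3F1 -1.740, highest C57Bl/6 -1.746). That ratio compares strains and does not give the share of either enzyme, since the probes differ; it was not tested.

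Slc2a1 codes for GLUT1, the transporter that works without insulin. Its signal was 9.84, 9.15, 10.35, 10.48 and 9.35 in C3H, 9.73, 10.10, 9.79, 9.86 and 9.45 in B6C3F1, and 9.51, 9.47, 9.32, 9.67 and 9.54 in C57Bl/6. The C3H arrays spread on both sides of the C57Bl/6 arrays, and the difference was 0.33 with an interval of -0.09 to 0.75 (adjusted p = 0.305). Slc2a4 codes for GLUT4, which insulin and contraction bring to the cell surface. Its signal was 13.11, 12.90, 13.31, 13.17 and 13.04 in C3H, 13.06, 12.84, 13.05, 13.14 and 12.71 in B6C3F1, and 12.91, 12.93, 12.87, 12.80 and 12.66 in C57Bl/6. The strains overlapped only where the lowest C3H array met the highest C57Bl/6 arrays, and the difference of 0.27 (interval 0.07 to 0.47) was not called (adjusted p = 0.0648). It was called in 5 of 27 alternatives, among them without C3H replicate 2 (adjusted p = 0.0358) or B6C3F1 replicate 5 (adjusted p = 0.0452), with arrays centred on their median (0.38, adjusted p = 0.0268) and with the Gapdh ratio in the fit (adjusted p = 0.0412). A dimmer probe set of Slc2a4 gave the opposite sign, -0.24 (adjusted p = 0.332 over all probe sets).

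**Figure D2:**
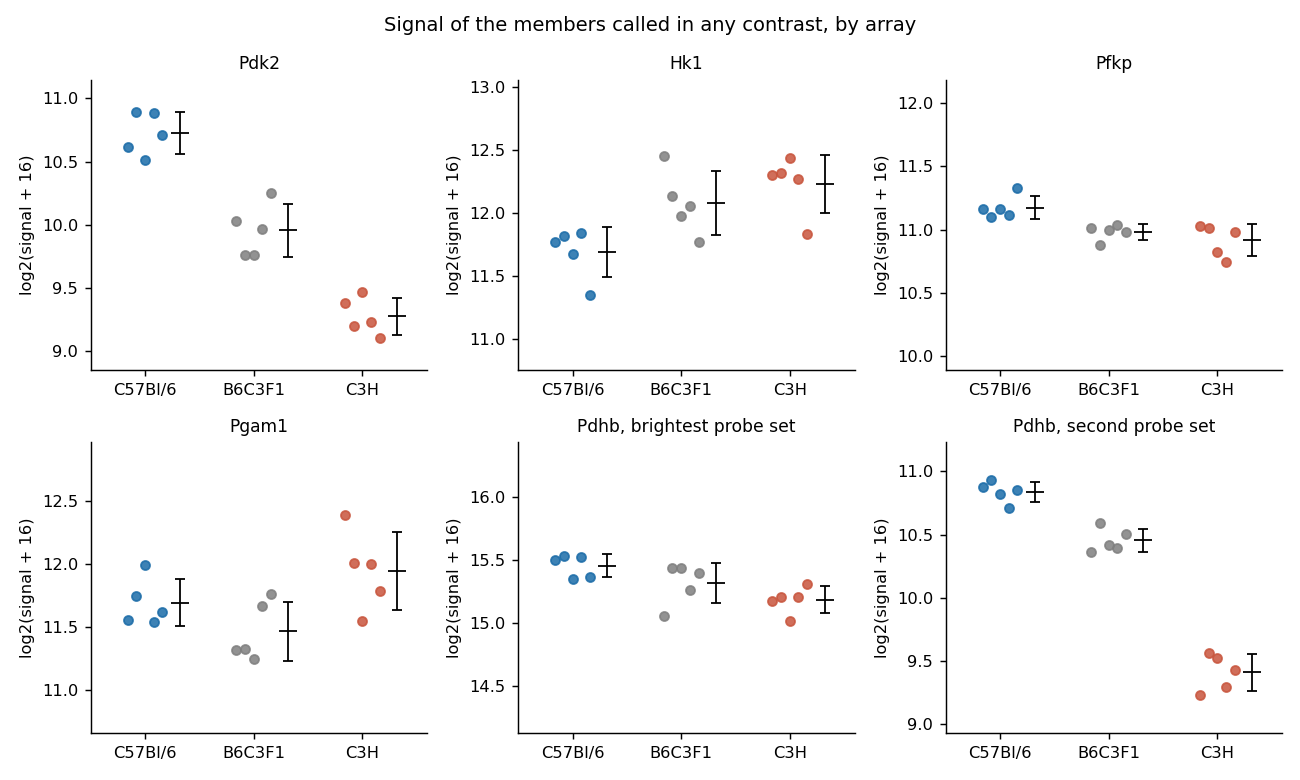
Signal of each array (points, log2(signal + 16)) with the mean and SD (black, n = 5) for Pdk2, Hk1, Pfkp and Pgam1 and for both probe sets of Pdhb; every panel spans the same number of log2 units. Pdk2 and the second Pdhb probe set separate all 3 groups, with the hybrid between the inbred strains, while the brightest Pdhb probe set and Pfkp differ by less than 0.3.

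Of the 5 phosphofructokinase genes, Pfkp was called. Pfkm, the muscle subunit of the enzyme, had signals of 14.74, 14.77, 14.68, 14.69 and 14.88 in C3H, 14.51, 14.67, 14.85, 14.62 and 14.69 in B6C3F1, and 14.96, 14.81, 14.76, 14.91 and 14.79 in C57Bl/6. These ranges overlapped, and the C3H minus C57Bl/6 difference was -0.09 (interval -0.26 to 0.07, adjusted p = 0.469). Pfkp, the platelet subunit, was lower in C3H. Its signal was 11.030, 11.010, 10.824, 10.744 and 10.982 in C3H, 11.009, 10.875, 10.999, 11.036 and 10.980 in B6C3F1, and 11.163, 11.102, 11.164, 11.114 and 11.328 in C57Bl/6. Every C57Bl/6 array lay above every array of both other groups. The difference was -0.26 ± 0.08 (SE), or 1.19-fold (adjusted p = 0.0429), and it lost its call in 14 of 27 alternatives. These included a fit with the poly-A signal (-0.16, adjusted p = 0.325) and leaving out B6C3F1 replicate 1, 3 or 4, C3H replicate 3 or 4, or C57Bl/6 replicate 1, 3, 4 or 5 (adjusted p from 0.0527 to 0.117). Pfkl, the liver subunit, differed by 0.12 (adjusted p = 0.443). Pfkfb2, the heart form of the enzyme that makes the activator fructose 2,6-bisphosphate, differed by -0.19 on its brightest probe set (adjusted p = 0.405). Pfkfb3, the inducible form, was dim and its interval of -0.64 to 0.90 was wide.

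In lower glycolysis, the steps that split the sugar and yield ATP, 0 of 8 tested genes were called between the inbred strains, and 1, Pgam1, was called between the hybrid and C3H. Aldoa, the muscle aldolase, differed by -0.01 (interval -0.18 to 0.17) and Eno3, the muscle enolase, by 0.01 (interval -0.18 to 0.20). Tpi1 (triosephosphate isomerase) differed by 0.16, Pgk1 (phosphoglycerate kinase) by 0.07, Pgam2 (muscle phosphoglycerate mutase) by 0.06 and Pkm (pyruvate kinase) by -0.13, with adjusted p-values from 0.218 to 0.791. Aldoc, the brain aldolase, was the dimmest of the 32 and its interval was -0.88 to 0.60. Pgam1, the mutase of non-muscle tissues, had signals of 12.39, 12.01, 11.55, 12.00 and 11.79 in C3H, 11.32, 11.33, 11.25, 11.67 and 11.76 in B6C3F1, and 11.56, 11.75, 12.00, 11.54 and 11.62 in C57Bl/6. The hybrid arrays were low but overlapped both inbred strains. B6C3F1 was 1.39-fold below C3H (-0.48 ± 0.14, SE, adjusted p = 0.0457), a call that was lost in 18 of 27 alternatives. Leaving out B6C3F1 replicate 1, 2, 3 or 4, C3H replicate 1, 2 or 4, or C57Bl/6 replicate 1, 2, 4 or 5 ended it (adjusted p from 0.0508 to 0.122). The difference of Pgam1 from C57Bl/6 in B6C3F1 was -0.23 (interval -0.52 to 0.06).

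Gapdh, which codes for the dehydrogenase of this stretch, was measured by Affymetrix control probe sets. On the middle set the signal was 15.38, 15.46, 15.25, 15.49 and 15.66 in C3H, 15.23, 15.70, 15.75, 15.47 and 15.51 in B6C3F1, and 15.77, 15.61, 15.40, 15.69 and 15.43 in C57Bl/6. The groups overlapped, and the C3H minus C57Bl/6 difference was -0.13 (exact two-sided permutation p = 0.238, Benjamini-Hochberg adjusted p = 0.527 in a family of 15). The smallest p that 5 against 5 arrays can give is 0.00794.

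Neither lactate dehydrogenase gene was called in any contrast. Ldha, the subunit common in muscle and anaerobic tissue, had signals of 15.04, 15.12, 14.94, 15.12 and 15.41 in C3H, 14.95, 15.32, 15.25, 15.17 and 15.02 in B6C3F1, and 15.17, 15.21, 15.08, 15.12 and 15.04 in C57Bl/6. The inbred strains differed by 0.00 with an interval of -0.19 to 0.20. Ldhb, the heart subunit, had signals of 15.53, 15.53, 15.43, 15.75 and 15.74 in C3H, 15.37, 15.82, 15.80, 15.61 and 15.50 in B6C3F1, and 15.77, 15.68, 15.48, 15.68 and 15.49 in C57Bl/6. Its difference was -0.03 (interval -0.23 to 0.18), and the groups of both genes overlapped throughout. The log2 ratio of the Ldha to the Ldhb probe set was -0.47, -0.48 and -0.50 in C3H, B6C3F1 and C57Bl/6.

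Pyruvate dehydrogenase joins E1 (Pdha1 and Pdhb), E2 (Dlat) and E3 (Dld) subunits. Of these 4 genes, Pdhb, the beta subunit of E1, was called lower in C3H. On its brightest probe set the signal was 15.17, 15.21, 15.01, 15.21 and 15.31 in C3H, 15.06, 15.43, 15.44, 15.26 and 15.39 in B6C3F1, and 15.50, 15.53, 15.34, 15.52 and 15.37 in C57Bl/6. The inbred strains did not overlap, the hybrid spanned both, and the difference was -0.27 ± 0.09 (SE), or 1.21-fold (adjusted p = 0.0374). A second Pdhb probe set gave 9.23, 9.56, 9.52, 9.29 and 9.43 in C3H, 10.36, 10.59, 10.41, 10.40 and 10.50 in B6C3F1, and 10.87, 10.93, 10.82, 10.71 and 10.85 in C57Bl/6. All 3 groups were separate on this set, and the difference was -1.43 ± 0.09 (adjusted p = 6.70e-10 over all probe sets). On it B6C3F1 differed from C57Bl/6 by -0.38 (adjusted p = 0.0289) and stood 1.05 above C3H (adjusted p = 2.50e-07). The probe sets thus shared a direction and differed in size. The call on the brightest set was lost in 13 of 27 alternatives, with no change of sign. Leaving out any of C3H replicates 1 to 4 or C57Bl/6 replicate 1, 2 or 4 ended it (adjusted p from 0.0552 to 0.108). Pdha1, the alpha subunit that the kinases phosphorylate, differed by -0.18 (adjusted p = 0.214), Dlat by -0.14 (0.303) and Dld by -0.08 (0.581).

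The other regulators of the complex among the 36 genes, Pdk1, Pdk3 and Pdp1, were not called on their brightest probe sets. Pdk4, a kinase of the complex outside the 36, was lower in C3H (-1.36, adjusted p = 0.000522). Pdk1, a kinase that hypoxia induces, had signals of 12.34, 12.15, 12.14, 12.02 and 12.20 in C3H, 12.06, 11.87, 12.21, 11.98 and 12.21 in B6C3F1, and 12.36, 12.00, 11.98, 12.49 and 12.19 in C57Bl/6. The groups overlapped and the C3H minus C57Bl/6 difference was -0.03 (interval -0.25 to 0.19). Pdk3, a kinase of low cardiac signal, differed by 0.26 (interval -0.25 to 0.78), and Pdp1, the phosphatase that reactivates the complex, by -0.08 (interval -0.33 to 0.18). The log2 ratio of the Pdk2 to the Pdk1 probe set was -2.90 ± 0.17 (SD, n = 5) in C3H, -2.11 ± 0.19 in B6C3F1 and -1.48 ± 0.24 in C57Bl/6, a description with no test.

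Of the 5 tested glycogen genes, 0 were called between the inbred strains. Pygm, the muscle phosphorylase that releases glucose 1-phosphate, differed by 0.30 (interval 0.06 to 0.53, adjusted p = 0.0847), and Pygb, the brain form, by 0.08 (adjusted p = 0.673). Gys1, muscle glycogen synthase, differed by -0.19 (adjusted p = 0.335), Gbe1, the branching enzyme, by -0.27 (adjusted p = 0.175), and Ugp2, which makes the UDP-glucose that synthase uses, by -0.11 (adjusted p = 0.491).

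The hybrid was set against each parent and the midparent. Against C57Bl/6, 1 of 32 genes was called, Pdk2 (3.13%, beside 3.83% of all genes), and it was lower, as were 1.77% of all genes, while 0 were higher, beside 2.06%. The arrays did not overlap for 3 genes (Pdk2, Hk2 and Pfkp), beside 6.16% of all genes. Against C3H, 2 were called (6.25%, beside 6.2% of all genes): Pdk2 was higher, as were 3.59% of all genes, and Pgam1 was lower, as were 2.62%. Here only Pdk2 had arrays that did not overlap, beside 6.4% of all genes. At an unadjusted p under 0.05 there were 7 genes against C57Bl/6 (21.9%, beside 20.3% of all genes) and 4 against C3H (12.5%, beside 19.7% of all genes). The median differences of the 32 were 0.01 and 0.01, against 0.01 and 0.03 over all genes. Against the midparent, 0 of 32 genes were called by limma, beside 0.633% of all genes called, 0.481% higher and 0.153% lower. An unadjusted p under 0.05 was found for 2 genes, Pgam1 and Pgam2 (6.25%, beside 14.7% of all genes). The shares of all genes called moved with single arrays. Against C57Bl/6 the share was between 2.01% (without C57Bl/6 replicate 3) and 6.30% (without C57Bl/6 replicate 2), and it moved by more than 1.5 times also without any 1 of the 5 B6C3F1 arrays or C57Bl/6 replicate 1 or 4. Against the midparent it was between 0.313% (without B6C3F1 replicate 3) and 1.60% (without C3H replicate 5), and it moved as far also without B6C3F1 replicate 1, 2 or 4. Intervals against the midparent lay within 1.5-fold for 28 of 32 genes, a count not made over all genes. These contrasts share arrays, so their values are not independent.

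Other probe sets of a gene gave another view of its transcripts. Of the 32 genes, 18 had 2 or more probe sets above the dim filter, with 35 sets besides the brightest, and 21 of the 35 had the same sign as the brightest between the inbred strains. Tested one probe set at a time, 9 of 67 sets of these genes were called (13.4%, beside 13.7% of all probe sets), 4 higher and 5 lower in C3H, and they belonged to 7 genes. Of these genes, Pdk2, Hk1 and Pdhb were also called on the brightest set, and Pfkp was not called at this level (adjusted p = 0.0538). A Pdk1 probe set read 11.90, 11.85, 12.06, 12.00 and 11.37 in C3H, 11.86, 11.62, 11.43, 11.66 and 11.64 in B6C3F1, and 11.48, 11.26, 11.09, 11.33 and 11.18 in C57Bl/6. It was higher in C3H by 0.57 ± 0.12 (adjusted p = 0.00232), while the brightest Pdk1 set gave -0.03 and another 0.32 (adjusted p = 0.146). For Pgk1 a dimmer set gave 0.57 (adjusted p = 0.0193) and another -0.27 (adjusted p = 0.194), beside 0.07 on the brightest. The second Pdha1 set was lower than in C57Bl/6 both in C3H (-0.43, adjusted p = 0.0235) and in B6C3F1 (-0.48, adjusted p = 0.0400). A dim Pfkfb2 set was lower in C3H (-1.25, adjusted p = 0.0225). Whether such disagreement comes from transcript ends, splice forms or strain differences under the probes was not tested.

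**Figure D3:**
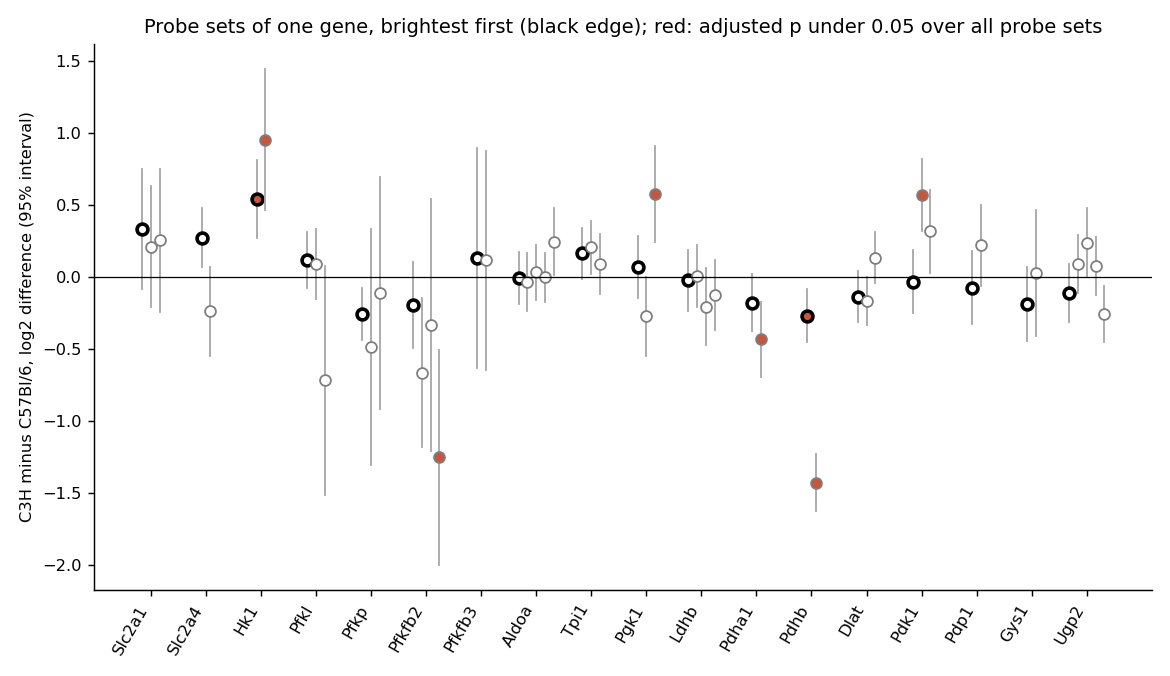
C3H minus C57Bl/6 log2 difference (y axis, 95% interval) of every tested probe set for the 18 genes with more than 1, brightest first with a black edge. Red marks an adjusted p under 0.05 over all probe sets. For Pdhb the second set lies at -1.43 beside -0.27 on the brightest, and for Pdk1 a set at 0.57 stands beside a brightest set at -0.03.

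Genes around the pathway were read from 6 lists, and the called genes of a list are named up to 4 by the size of their difference. Tigar, Pdhx, Gyg, Nhlrc1, Hif1a and Esrrg lie outside that rule and were named after their values were seen. Of the other transporters, hexokinases and glycolytic isozymes, 14 of 20 were tested, with a list median of -0.07. Of these, 1 was called, beside 15.7% of all genes. It was Bpgm, which makes the 2,3-bisphosphoglycerate of red cells, lower in C3H (-0.70 ± 0.14, SE, adjusted p = 0.00122). Of 6 red cell markers 3 had a probe set and 2 were above the dim filter. Of these 2, Alas2 was lower in C3H and the other was not called. The summed red cell markers ranged from 9.98 to 11.30 in C3H and from 10.59 to 11.73 in C57Bl/6. Bpgm was also called lower in B6C3F1 than in C57Bl/6, where 0 red cell markers were called. The part of red cells in the Bpgm difference was not tested. Tigar, a phosphatase that lowers fructose 2,6-bisphosphate, was not called between the inbred strains on its brightest probe set (0.19, adjusted p = 0.246), while another of its sets gave -1.87 (adjusted p = 8.47e-08 over all probe sets).

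Of the genes for lactate and pyruvate transport and other pyruvate enzymes, 18 of 21 were tested, with a list median of -0.02. In C3H 2 were called higher and 3 lower, beside 7.26% and 8.4% of all genes. Pdk4 codes for the kinase of the complex that fasting and fatty acids induce. Its signal was 11.62, 12.46, 11.96, 11.32 and 12.86 in C3H, 13.82, 13.45, 13.42, 13.40 and 13.81 in B6C3F1, and 12.93, 13.78, 14.09, 13.11 and 13.12 in C57Bl/6. Every C3H array lay below every other array, while B6C3F1 differed from C57Bl/6 by 0.18 (adjusted p = 0.731) and stood 1.54 above C3H (adjusted p = 0.000519). For Pdk2, in contrast, the hybrid mean was between the inbred strains, and neither gene was called against the midparent (Pdk4 0.86, adjusted p = 0.0792). Pdk4 was called against it in 4 of 26 alternatives: without C3H replicate 5 (adjusted p = 0.0125), without C57Bl/6 replicate 3 (adjusted p = 0.0379), with the Gapdh ratio in the fit (adjusted p = 0.0377) and with the replicate block (adjusted p = 0.0426). Slc16a7, the lactate and pyruvate carrier MCT2, was higher in C3H (0.91 ± 0.16, adjusted p = 0.000291), as was Pdhx, the E3-binding protein of the complex (0.38, adjusted p = 0.00310). Me1, the cytosolic malic enzyme (-0.79), and Acly, ATP citrate lyase (-0.57), were lower.

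Of the 25 other glycogen genes, 22 were tested, and the list median was 0.18, against -0.02 over all genes. In C3H 5 were called higher and 1 lower, beside 7.26% and 8.4% of all genes. Pygl, the liver phosphorylase, read 10.30, 10.43, 10.64, 9.54 and 9.99 in C3H, 9.54, 9.73, 9.48, 9.14 and 9.55 in B6C3F1, and 7.92, 7.77, 8.22, 8.06 and 7.97 in C57Bl/6. It was 4.57-fold higher in C3H (2.19 ± 0.17) and 2.83-fold higher in B6C3F1 (1.50 ± 0.17) than in C57Bl/6, and all C57Bl/6 arrays lay apart. Phka1, the muscle regulatory subunit of phosphorylase kinase, was higher by 0.82 (adjusted p = 0.0108, and 0.153 in the fit with the poly-A signal). Stbd1, a glycogen-binding protein, was higher by 0.81 (adjusted p = 0.00305), and Nhlrc1 (malin) by 0.49 and Gyg (glycogenin) by 0.27. The Gyg call was lost on a probe set not ending in _x_at or _s_at (0.12, adjusted p = 0.475) and in the fit with the poly-A signal (adjusted p = 0.143). Ppp1r3e, a glycogen-targeting subunit of protein phosphatase 1, was lower (-1.27, adjusted p = 0.0305), a dim gene whose call was lost in 9 of 26 alternatives, 6 of which left out C3H replicate 3, 4 or 5 or C57Bl/6 replicate 1, 3 or 5 (adjusted p from 0.0582 to 0.0820).

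Of the gluconeogenic and shuttle genes, 12 of 13 were tested, with a list median of -0.15. In C3H 1 was called higher and 2 lower, beside 7.26% and 8.4% of all genes. Fbp2, the muscle fructose bisphosphatase that opposes phosphofructokinase, read 9.80, 9.85, 9.67, 8.67 and 10.05 in C3H, 10.85, 10.47, 10.55, 10.30 and 10.59 in B6C3F1, and 11.22, 10.94, 11.20, 10.89 and 11.16 in C57Bl/6. The groups were separate. B6C3F1 stood apart from C57Bl/6 by a narrow margin (highest B6C3F1 10.85, lowest C57Bl/6 10.89), and Fbp2 was not called in that contrast in the main fit. The C3H signal was 2.78-fold lower than that of C57Bl/6 (-1.47 ± 0.19). Gpd2, the mitochondrial enzyme of the glycerol phosphate shuttle, was lower (-0.49), and Gpd1l was higher by 0.62, although a second Gpd1l probe set gave -0.02. Of the pentose phosphate and hexosamine genes, 14 of 15 were tested, with a list median of 0.05. Pgd (0.42) was called higher and Oga (-0.43) lower in C3H, beside 7.26% and 8.4% of all genes. On a probe set not ending in _x_at or _s_at, Pgd gave 0.18 (adjusted p = 0.343). Pgd codes for a dehydrogenase of the pentose phosphate pathway and Oga for the enzyme that removes O-GlcNAc.

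All 31 regulators of glucose use were tested, with a list median of 0.02. In C3H 1 was called higher and 5 lower, beside 7.26% and 8.4% of all genes. Prkag2, a regulatory subunit of the energy sensor AMPK, read 6.98, 7.43, 7.42, 6.76 and 7.41 in C3H, 8.42, 8.03, 8.45, 8.23 and 8.45 in B6C3F1, and 9.24, 8.28, 8.56, 8.59 and 8.56 in C57Bl/6. C3H lay below both other groups, which overlapped. On its brightest probe set not ending in _x_at or _s_at, B6C3F1 stood 0.64 above C3H instead of 1.12 and the call was lost (adjusted p = 0.160), while C3H minus C57Bl/6 was -0.84 and was still called (adjusted p = 0.0281). Tbc1d4 and Tbc1d1, the Rab regulators that hold GLUT4 inside the cell until insulin or AMPK signals, were lower (-0.91 and -0.63, adjusted p = 0.000459 and 0.00869), and a second Tbc1d4 probe set gave -0.12 (adjusted p = 0.731 over all probe sets). Akt1, an insulin-signalling kinase, was lower in C3H (-0.53) and was the single gene of these lists called against the midparent, where B6C3F1 stood 0.50 above it (adjusted p = 0.00854). Hif1a, the hypoxia-inducible factor (-0.41), and Esrrg, a nuclear receptor of oxidative metabolism (0.32), were called too, and lost their calls in 9 and 8 of 27 alternatives. For Hif1a these included leaving out C3H replicate 1 or 4 or C57Bl/6 replicate 1, 4 or 5 (adjusted p from 0.0739 to 0.115). For Esrrg they included leaving out C3H replicate 3 or 5 or C57Bl/6 replicate 2, 3 or 5 (adjusted p from 0.0537 to 0.0769).

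**Figure D4:**
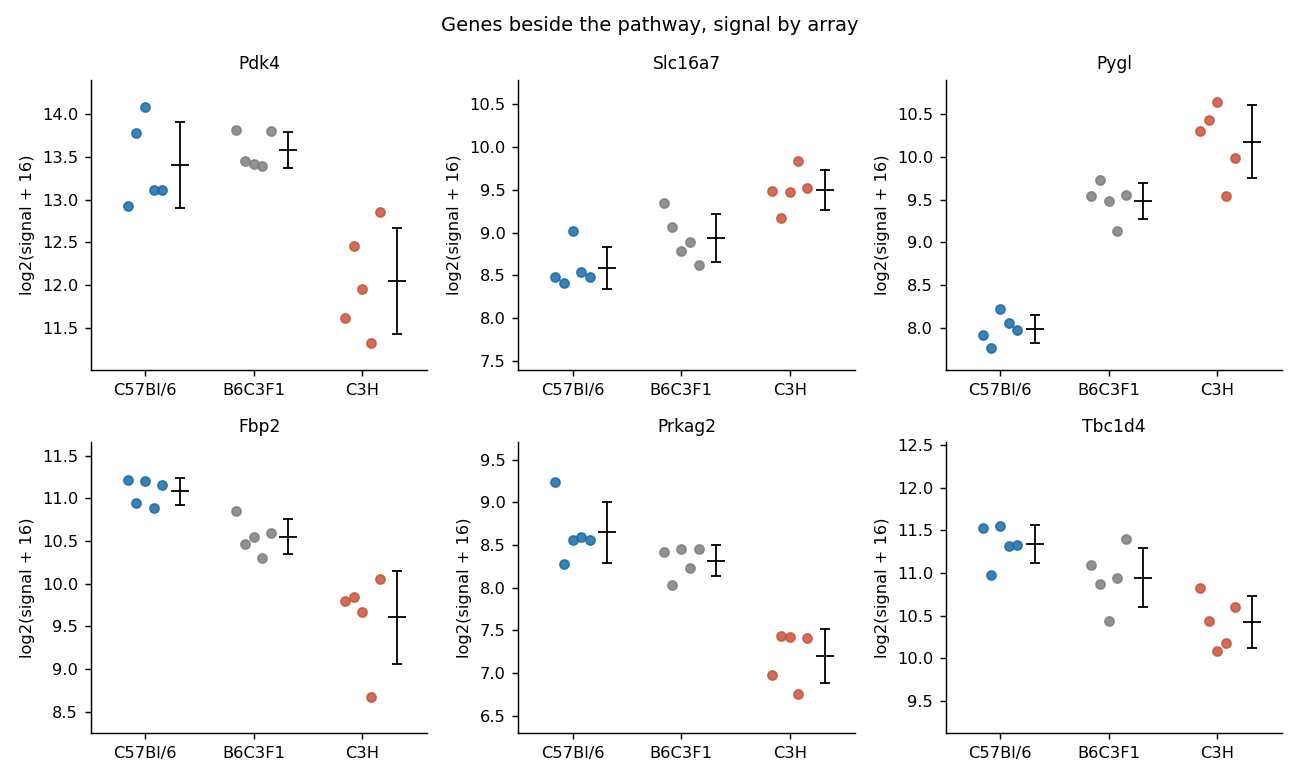
Signal of each array (points, log2(signal + 16)) with the mean and SD (black, n = 5) for 6 genes that act beside the pathway: Pdk4, Slc16a7, Pygl, Fbp2, Prkag2 and Tbc1d4. For Pdk4 and Prkag2, on the probe sets plotted, the hybrid lies near C57Bl/6, while for Pygl it lies nearer C3H and every C57Bl/6 array stands below both other groups.

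Some markers of other cell types were also called between the inbred strains, where 8.4% of all genes were lower in C3H and 7.26% higher. Endothelial and fibroblast markers not named here were not called. Of 8 endothelial markers 3 were lower in C3H (Esam, Cdh5 and Cldn5), with summed signals from 13.003 to 13.652 in C3H and from 13.605 to 13.883 in C57Bl/6. Of 8 fibroblast markers 3 were higher (Dcn, Lum and Tcf21), with sums from 15.26 to 15.84 in C3H and from 15.01 to 15.48 in C57Bl/6. Hk1 and Slc2a1 are expressed outside cardiomyocytes too, and the part of these cells in their differences was not tested. Of 8 macrophage markers Adgre1 was higher and Cd68 lower, and of 5 smooth muscle markers Smtn was higher. Of 8 skeletal muscle markers 2 were above the dim filter and 1 of them, Tnni2, was lower in C3H, with sums from 7.30 to 8.65 in C3H and from 8.37 to 8.78 in C57Bl/6. Of 4 adipocyte markers with a probe set, 0 were above the dim filter. By gene order in RefSeq, the nearest tested genes, 3 on each side, included called neighbours for Pdk2 and Pdhb and none for Hk1. For Pdk2 this was Sgca (0.83), opposite in direction. For Pdhb these were Pxk (-0.90), in the same direction, and Abhd6 (0.85), in the opposite one. The other neighbours were not called, and over all genes 15.7% were called. The labels number the samples strain by strain, and order of handling and strain cannot be told apart.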

How the data were processed

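Signals were made with MAS5, which summarises each probe set's probe pairs into 1 number, per the submitters' processing notes; no version is given there. The deposited values are on a log2 scale with linear signals scaled to a 2% trimmed mean near 500.26 on each of the 15 arrays, both read from the values. The table holds 45096 probe sets, of which 34940 have 1 gene symbol. Arrays have no depth, so their number limits the precision.

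From the linear signals, log2(signal + 16) was computed, a scale that understates changes of low genes. The brightest probe set on average represented a gene, and dim sets, with a mean under the 40th percentile (5.74), were not tested. Tests used limma 3.58.1 (R 4.3.3), with eBayes following the intensity trend, on all 15 arrays in 1 fit, with Benjamini-Hochberg adjustment over 13107 genes, or over 23037 probe sets where stated. A gene was called at an adjusted p under 0.05. The procedure was tested on simulated data with the spread of all genes tested. Across the 4 contrasts it found 34.3% to 59.7% of 1.5-fold changes and 65.7% to 80.6% of 2-fold changes. Of 4-fold changes it found 89.4% to 100%. A gene that was not called can therefore still differ. The members and the gene lists were chosen with earlier results of these data known.

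Every array value is given for members called in any contrast and for Slc2a1, Slc2a4, Hk1, Hk2, Pfkm, Gapdh, Ldha, Ldhb, Pdk1 and Pdk2. Gapdh was compared with exact permutation tests in scipy 1.17.1. Probe sets with several symbols, 3 of them with Gapdh and 1 with Hk1, were left out. Promoter windows came from RefSeq (GRCm38.p6); the array values name no genome build.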

Additional observations from a re-analysis of the deposited data

Results flagged for a closer look

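In 5 of 99 groups of 5 arrays, the highest or lowest array lay far from the others relative to the group's range; about 1 in 20 groups would do so by chance. Hk1 on C3H replicate 5 was 11.83, beside 12.27 to 12.43 on the other C3H arrays. Pfkp on C57Bl/6 replicate 5 was 11.33, beside 11.10 to 11.16, and without that array its call was lost. Aldoc on B6C3F1 replicate 2 was 4.49, beside values from 5.98 to 6.20. Dlat on C3H replicate 5 was 13.50, beside 13.16 to 13.22. Pfkfb2 on C57Bl/6 replicate 1 was 9.95, beside 9.65 to 9.70.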

How the results depend on the processing

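Over 27 alternatives the members' differences gave 3412 values, of which 3353 kept their side of the threshold, 46 lost a call and 13 gained one. Changes of sign were counted only where a call was involved, and there were 0. Differences that were not called could change sign among the 3353. Pfkp did so for B6C3F1 minus C3H (0.06 in the main fit, -0.01 with arrays centred on their median). For C3H minus C57Bl/6, where 4 members were called, 2 were called without an intensity trend, 1 (Pdk2) in the fit with the poly-A signal, and 7 had a called probe set when every probe set was tested, 3 of them among the 4. Over all genes the shares called were 15.7% in the main fit, 14.0% without the trend and 10.4% with the poly-A signal. Leaving out each array gave 2 to 5 members, beside 12.5% to 17.3% of all genes. For B6C3F1 minus C57Bl/6 (1 member, beside 3.83% of all genes), the replicate block gave 2 members, beside 3.75% of all genes. The added gene was Hk1 (adjusted p = 0.0289). In this contrast, leaving out each array gave 1 to 2 members, beside 2.01% to 6.30% of all genes. For B6C3F1 minus C3H (2 members), 1 was called, Pdk2, with no dim filter, after quantile normalization, without an intensity trend, with only the compared strains in the fit, with the replicate block, and with the poly-A signal or the Gapdh ratio as a covariate; leaving out each array gave 1 to 2. Over all genes the share called for B6C3F1 minus C3H was 6.2% in the main fit. It was 3.75% with no dim filter, 3.09% with the poly-A signal and 4.88% to 6.59% in the rest of these settings. Leaving out each array gave 4.23% to 8.52% of all genes. Against the midparent the count of members called was 0 throughout. The cause of these changes was not tested. Replicate numbers follow the order of the samples within each strain, and the labels share no number between strains. The replicate block therefore pairs arrays by that order alone. Arrays with the same replicate number correlated between -0.06 and 0.13 in their deviations from the group means. With the replicate block, 3 members were called between the inbred strains: Hk1, Pdk2 and Slc2a4 (adjusted p = 0.0473), while Pdhb (adjusted p = 0.0581) and Pfkp (adjusted p = 0.0640) lost their calls. Median centring of the arrays moved the all-gene median between the inbred strains from -0.02 to 0.08. Without a detection call, dim genes such as Aldoc, Pfkfb3 and Pdk3 have wide intervals.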
